A study of Caenorhabditis elegans with 2 samples.

Results

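The srh and srbc genes encode candidate chemoreceptors of Caenorhabditis elegans, and their promoters were examined for binding of tagged EGL-5. The members are the 291 protein-coding genes whose symbol begins with srh- or srbc- in Ensembl's WBcel235 annotation, of 19973 protein-coding genes on the 6 nuclear chromosomes. They comprise 220 srh genes and 71 srbc genes. Binding was measured by chromatin immunoprecipitation and sequencing (ChIP-seq) of an eGFP fusion of EGL-5, in whole L3 larvae of both sexes pooled. All worms were of strain OP54, with the unc-119(ed3) mutation and the integrated insertion wgIs54, which carries the tagged egl-5, and the 2 samples are biological replicates 1 and 2 of 1 group. The fusion is expressed from a transgene in these worms, and its level in each cell type was not analysed here. No untagged group was analysed here, so the members are set beside all protein-coding genes.

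Nematode chemoreceptors are G protein-coupled receptors with several membrane-spanning segments, carried mainly on the cilia of sensory neurons, where they detect odours, salts, pheromones and other small molecules. The genes fall into many families, named sr followed by further letters, which have expanded by local duplication and lie in clusters, above all on chromosome V. Well-known members include srbc-64 and srbc-66, whose products take part in sensing dauer pheromone in the ASK neurons, and srh-234, which is expressed in ADL neurons and responds to feeding state. EGL-5 is a Hox homeodomain protein of the posterior body, with roles in tail cells, including tail neurons, and in the HSN neurons. In whole larvae, binding in a few cells and weak binding in many cells cannot be told apart.

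The deposited lists give peak positions and a score for each peak, with no read counts, so the depth behind a value is unknown. The list thresholded by the irreproducible discovery rate (IDR), which compares the ranking of peaks between replicates, held 2570 peaks on ce11. They were the 2570 highest-scoring of 28619 peaks in the pooled list, and each replicate list held 30000 peaks. The pooled and replicate lists are deposited as peaks and background, so a summit found only there is an entry in a list and is not taken here as a bound site. The replicate numbers appear exchanged between builds. Rank for rank, the scores called replicate 1 on ce11 were a median of 39.3% away from those called replicate 1 on ce10 and 0.218% away from those called replicate 2. For replicate 2 on ce11 these differences were 64.6% from its namesake on ce10 and 0.341% from the other. Replicates are numbered here as on ce11, and their link to a labelled sample was not settled.

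Sequence at the summits of the members' best-placed peaks is shown first, because the results below turn on these few sites. The srh-16 and srh-89 sites are from the IDR list, and the srh-2, srh-99 and srbc-58 sites are the highest-scoring pooled summits outside it in srh genes (srh-2 and srh-99) and in srbc genes. Each run reaches 50 bases to either side of the summit, read 5′ to 3′ on the strand of the gene from the WBcel235 (ce11) genome. Their places are chrV:12291758-12291858 (plus strand), chrV:7465635-7465735 (minus strand), chrV:731484-731584 (plus strand), chrII:3717045-3717145 (minus strand) and chrV:774248-774348 (plus strand). Capitals mark any match, on either strand, to 6 motifs. These are TTTATG, bound by posterior Hox proteins, with its shorter core TTTAT, then GAGAGA (a repeat), CAGCTG (an E-box), TGATAA (bound by zinc finger proteins of the GATA family) and lastly TAATTA (a homeodomain core). Every TTTATG also holds a TTTAT.

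srh-16: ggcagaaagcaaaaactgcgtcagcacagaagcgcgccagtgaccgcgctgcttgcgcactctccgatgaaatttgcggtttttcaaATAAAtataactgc
srh-89: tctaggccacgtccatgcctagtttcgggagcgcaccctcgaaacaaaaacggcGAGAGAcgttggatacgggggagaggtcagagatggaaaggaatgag
srh-2: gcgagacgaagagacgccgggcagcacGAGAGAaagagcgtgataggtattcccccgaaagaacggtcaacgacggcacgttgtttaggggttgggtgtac
srh-99: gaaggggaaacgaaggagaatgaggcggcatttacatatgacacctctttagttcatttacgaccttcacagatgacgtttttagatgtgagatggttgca
srbc-58: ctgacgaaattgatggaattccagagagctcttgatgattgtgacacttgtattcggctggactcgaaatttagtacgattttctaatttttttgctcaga

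Of these 5 stretches, srh-89 and srh-2 each held 1 GAGAGA, srh-16 held 1 TTTAT read on the opposite strand, and srh-99 and srbc-58 held none of the 6 motifs. GAGAGA lay within 50 bp of 26.8% of all IDR summits, TTTATG of 11.3% and TTTAT of 34.8%. A match is a description of the letters and does not mark a bound site. The stretches were 50.5% A+T at srh-16, 44.6% at srh-89, 42.6% at srh-2, 57.4% at srh-99 and 62.4% at srbc-58, where the median over all IDR summits was 54.5%.

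Which of the receptor genes carried a peak of the IDR list was asked with a promoter window from 1000 bp upstream to 200 bp downstream of each annotated transcript start. Only srh-16 and srh-89 had an IDR summit in that window, 2 of 291 members (0.687%, exact 95% interval 0.0833 to 2.46%). Over all protein-coding genes the share was 8.92%, or 1781 of 19973. By family the counts were 2 of 220 srh genes (0.909%) and 0 of 71 srbc genes. A count of 0 allows a share of up to 4.23% of srbc genes by the limit of 3 counts, and of up to 5.06% by the exact 95% interval. The other 289 members had no IDR summit in the window. Intervals and limits on shares cover counting error only.

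The srh-16 gene (WBGene00005241) lies at 12291861 to 12294196 on the plus strand of chromosome V. Its peak, at 12291626 to 12291989, had a pooled score of 43.7 and ranked 1100 of the 2570 IDR peaks, with its summit 53 bp upstream of the start in intergenic sequence. In the replicate lists the score was 8.97 in replicate 1, at rank 4837 of 30000, and 34.2 in replicate 2, at rank 577. The site was thus far higher in the ranking of replicate 2 than in that of replicate 1, where it fell outside the 2570 highest peaks. Of all annotated protein-coding starts, that of srh-16 was the nearest to this summit.

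The srh-89 gene (WBGene00005310) lies at 7463453 to 7464796 on the minus strand of chromosome V. Its peak, at 7465503 to 7465866, had a pooled score of 41.0 and ranked 1288, with its summit 889 bp upstream of the start. The score was 15.6 in replicate 1, at rank 1698, and 24.2 in replicate 2, at rank 1569. This was the only member in the 2570 highest peaks of each replicate. The nearest start, however, was not its own: F25E5.1, which is transcribed away from srh-89 on the plus strand from 7465884, began 199 bp from the summit. The summit thus stood in the windows of both genes, and the lists do not assign a peak to a gene. The scores of srh-16 and srh-89, 43.7 and 41.0, stood beside a median of 42.7 for the 1389 IDR summits in promoter windows of all genes.

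The members nearest to joining them were srh-2 and srbc-58. The srh-2 gene (WBGene00005228), with 7 annotated starts over 728301 to 734311 on chromosome V, had an IDR summit at -1228 bp from one start, 228 bp beyond the window. That peak, with a score of 37.2, lay nearest to icl-1, which encodes the bifunctional enzyme of the glyoxylate cycle. A further IDR summit, with a score of 36.3, stood in an intron of srh-2, 1082 bp downstream of the nearest start, so srh-2 was the only member with an IDR summit inside its gene body. Over all genes 649 of 19973 (3.25%) had one. For srbc-58 the nearest IDR summit was 1567 bp upstream, in a peak with a score of 77.3 that lay nearest to sti-1, which encodes an Hsp90 co-chaperone. Beyond these came srh-40, srh-128 and srh-92, with IDR summits 2500, 2766 and 4687 bp upstream, the last being the peak of srh-89 and F25E5.1. With each summit given to the nearest start only, srh-16 and srh-2 were the 2 members that received any, against 2128 of all genes (10.7%).

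When the replicates were taken one at a time, the highest 2570 peaks of replicate 1 placed a summit in the windows of srh-89 and srh-2, beside 7.81% of all genes. The highest 2570 peaks of replicate 2 placed one at srh-16 and srh-89, beside 9.05% of all genes. The count was 2 of 291 in each, but srh-89 alone was in both. The pooled peak of srh-2, with its summit at -112 bp from an internal start, scored 19.4 and ranked 5823, with a score of 14.1 at rank 2086 in replicate 1. In replicate 2 the best summit in an srh-2 window was a different one, 5′ of the gene at -759 bp, with a score of 9.53 at rank 9370. The pooled summit that matches it lay in an exon of icl-1. The highest site in the srh-2 windows thus differed between the replicates, although the pooled peak at -112 bp overlapped a peak in both replicate lists.

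The whole pooled list reached more members. It placed a summit in the windows of 31 of 291 members (10.7%, exact 95% interval 7.35 to 14.8%), against 40.1% of all protein-coding genes. Of the srh genes 27 of 220 (12.3%) had one, and of the srbc genes 4 of 71 (5.63%), namely srbc-58, srbc-82, srbc-37 and srbc-20. Of the 32 pooled summits involved, 21 were intergenic, 4 lay in introns and 7 in exons, and 11 also stood in the window of a gene that is no member. Their median score was 8.85, below the 10.5 of the whole pooled list and the 12.03 of the pooled summits in promoter windows of all genes. Of the 32, 9 overlapped a peak in both replicate lists. Counts of place, sharing and overlap are not given here for the pooled summits of all genes, so they have no background.

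After srh-16, srh-89 and srh-2, the highest pooled scores were 18.4 at srh-99 (summit at -540 bp from the start), 16.5 at srh-55 (-547 bp), 13.5 at srh-71 (-922 bp), 13.1 at srh-76 (-995 bp) and 12.7 at srbc-58 (-697 bp). The srh-99 summit lay nearer to the start of fbxc-52, and those of srh-71 and srbc-58 fell in exons of T10D4.6 and sti-1. Scores between 9.78 and 10.9 belonged to srh-129, srh-266, srh-251, srbc-82 and srh-63. The summits of srh-129 and srh-63 lay in the first part of the gene itself, 64 and 14 bp downstream of the start. The srh-251 summit lay nearest to dhs-23.
The remaining members named by the rule of highest pooled score were srh-35, srh-170, srh-298, srh-217, srh-167, srh-288, srbc-37, srh-59, srbc-20, srh-98, srh-80 and srh-70, with scores from 9.22 at srh-35 to 7.35 at srh-70. All of these are below the median of the pooled list.

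**Figure D1:**
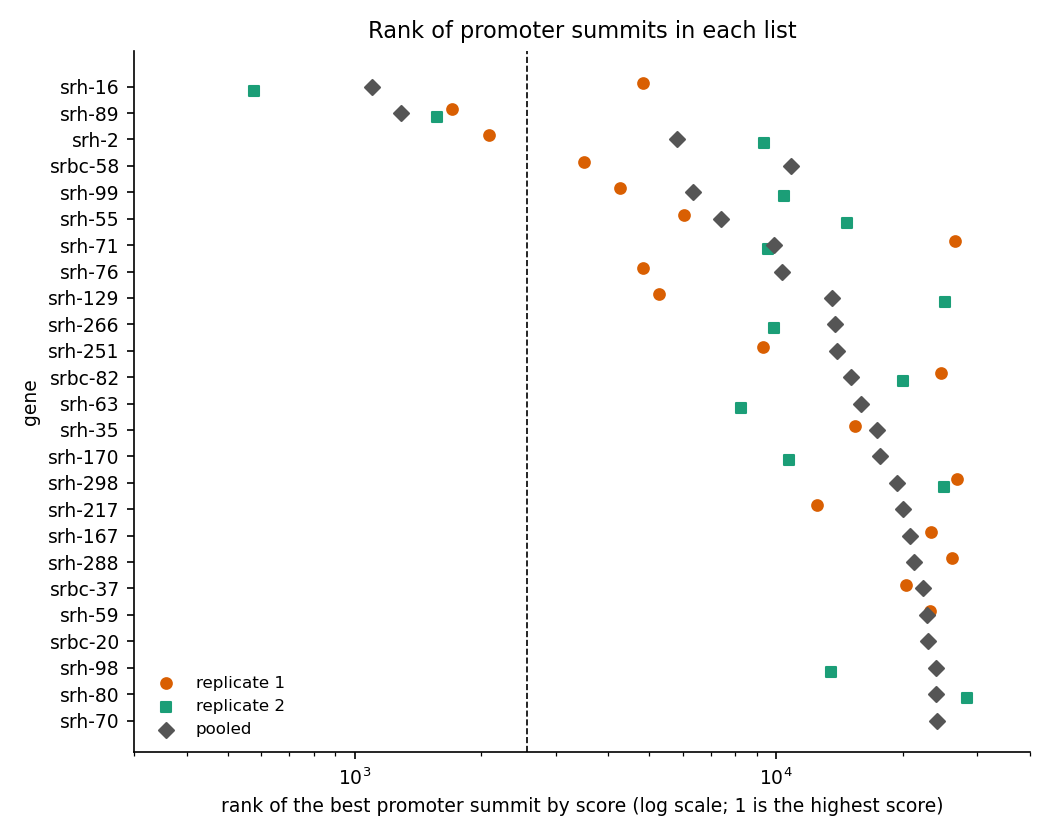
Rank of the best promoter summit of 25 srh and srbc genes in the replicate 1 list (circles), the replicate 2 list (squares) and the pooled list (diamonds), on a log scale where 1 is the highest score; the dashed line marks rank 2570, and a missing symbol means no summit in that list. Only srh-16 and srh-89 have a pooled summit left of the line, and for srh-16 the replicate 1 symbol, at 4837, lies to its right.

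The replicate lists differed in how many members they reached. In replicate 1, 48 of 291 members (16.5%) had a summit in the window, beside 40.5% of all genes, and in replicate 2, 23 of 291 (7.90%) did, beside 41.4% of all genes. The members in both lists were 11, which is 22.9% of those of replicate 1 and 47.8% of those of replicate 2. Over all genes the shared set was 71.3% of the genes of replicate 1 and 69.8% of those of replicate 2. Among srbc genes the counts were 11 of 71 in replicate 1 and 2 of 71 in replicate 2.

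Most of these entries stood low in the lists. The median rank of the members' summits was 18186 of 30000 in replicate 1 and 19274 in replicate 2, against 12491 and 12310 for the promoter summits of all genes. After srh-89 and srh-2, the highest in replicate 1 were srbc-58 with a score of 10.8, srbc-5 with 10.2, srh-99 with 9.68 and srh-76 with 8.97. After srh-16, srh-89 and srh-63 (10.3), replicate 2 had srh-2 with 9.53, srh-172 with 9.48 and srh-71 with 9.40. Several of the members high in one list were low or missing in the other. srbc-58, srbc-5 and srh-76 had no summit in replicate 2, srh-63 had none in replicate 1, and srh-71 had a score of 2.73 in replicate 1, where the lowest score of the whole list was 2.46. The srh-172 summits of the replicates were different ones, at -978 bp in replicate 2 and at 126 bp, with a score of 2.73, in replicate 1. Of these genes srbc-5 and srh-172 lie outside the rule for named genes and were chosen after their values were seen. In all, 229 members had no summit in the window in the pooled list or in either replicate. The same count over all genes is not given here. With the pooled list left aside, 60 of 291 members had a summit in either replicate, against 10583 of all 19973 protein-coding genes.

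**Figure D2:**
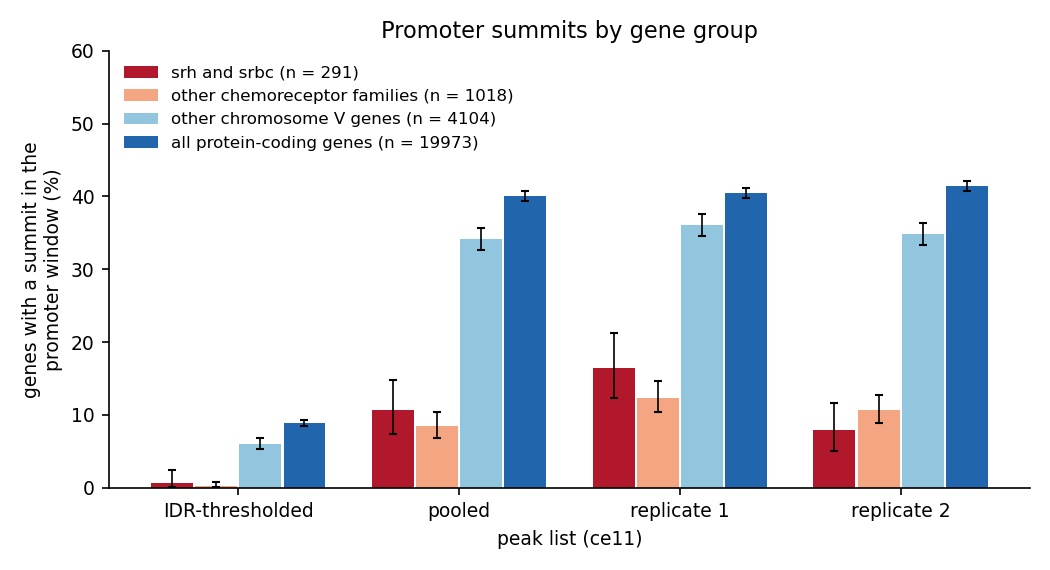
Percent of genes with at least 1 summit in the promoter window, in 4 peak lists, for srh and srbc genes, the other chemoreceptor families, the remaining genes of chromosome V and all protein-coding genes; bars are shares and whiskers exact 95% binomial intervals for counting error. The srh and srbc bars, from 0.687% in the IDR list to 16.5% in replicate 1, lie below those of all genes, at 8.92% and 40.5%.

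Receptors of known function were among the 229 of 291 members without any entry, so having none was the usual state of a member. No list held a summit in the windows of srbc-64, srbc-66, srh-234 or srh-220, the last a marker of ADL neurons. Their nearest IDR summits were 5980, 129958, 29768 and 41164 bp away. These 4 genes were chosen for what is known of them, outside the rule for named genes.

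Distances told of the surroundings of the members as well as of their promoters. From the nearest start of a member to the nearest IDR summit the median was 55270 bp, with quartiles at 22560 and 109595 bp, against a median of 16408 bp over all genes. The medians of srh and srbc genes were 56996 and 53842 bp. Within 20000 bp lay 22.7% of members, against 56.0% of all genes, and within 5000 bp 2.41% of members, against 23.2% of all genes. The other chemoreceptor families had a median of 38606 bp, with 28.3% of genes within 20000 bp and 4.62% within 5000 bp. Long distances were thus shared by the other receptor genes. Protein-coding genes of chromosome V had a median of 28902 bp, and the members on V one of 61273 bp. The farthest member was 333186 bp from an IDR summit.

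**Figure D3:**
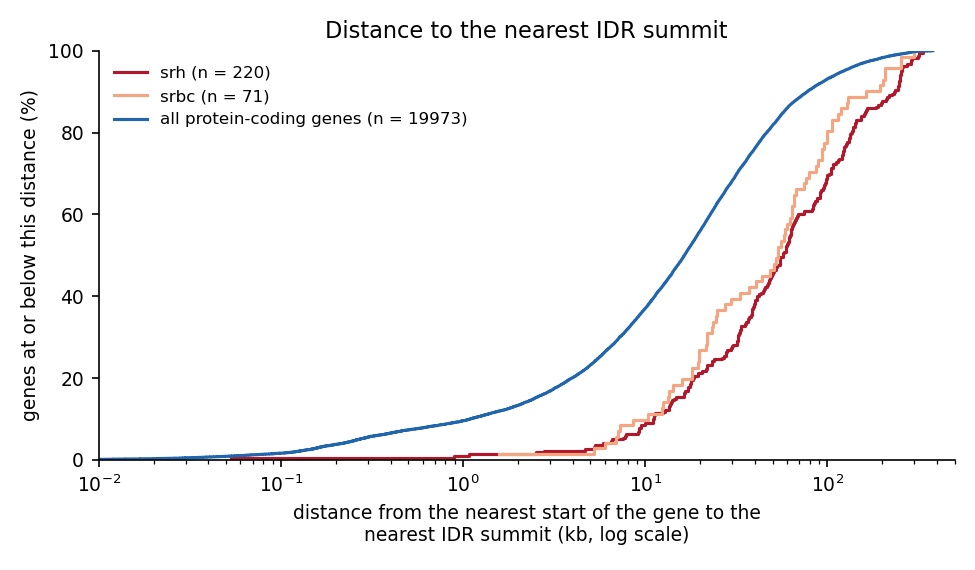
Cumulative percent of genes by the distance, in kb on a log scale, from their nearest start to the nearest IDR summit, for srh genes, srbc genes and all protein-coding genes. Both receptor curves run to the right of the curve of all genes, with medians of 56996, 53842 and 16408 bp.

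Chromosome V carried 248 of the 291 members, 180 srh and 68 srbc. Of the others, 27 srh genes were on II, 7 srh and 2 srbc on IV, 3 srh and 1 srbc on I, 2 srh on X and 1 srh on III. Chromosome V also had the lowest share of genes with an IDR promoter summit, 252 of 4994 (5.05%). On that chromosome the members had 2 of 248 (0.806%), and the genes outside all chemoreceptor families had 249 of 4104 (6.07%). In the pooled list the counts were 25 of 248 (10.1%) and 1400 of 4104 (34.1%). Of the 27 srh genes on II, 5 had a pooled summit, and of the 9 members on IV 1 did, srh-63. The pooled shares of all genes on II and IV are not given here, so these counts have no background.

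Along chromosome V, stretches rich in members held fewer IDR summits per Mb than the others. In the 8 full 1-Mb segments with 10 or more members, 200 members stood beside 76 IDR summits, or 9.50 per Mb, with a range of 4 to 17 per segment. In the 12 other full segments, 41 members stood beside 263 summits, or 21.9 per Mb, ranging from 5 to 35. Spearman's rho between members and IDR summits over the 20 segments was -0.66, and -0.78 for pooled summits. It is given as a description, since segments of 1 chromosome share libraries and neighbours. The neighbours followed the same order. Genes outside the chemoreceptor families had an IDR promoter summit in 62 of 1490 cases (4.16%) in the member-rich segments and in 176 of 2453 (7.17%) in the others. Place along the chromosome was not separated from the number of members. The 19th and 20th segments, near 1 end, held 8 and 5 members and only 5 and 9 IDR summits. The 8th segment held 18 members and 17 summits. The segment length and the minimum of 10 were set after the values were seen.

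**Figure D4:**
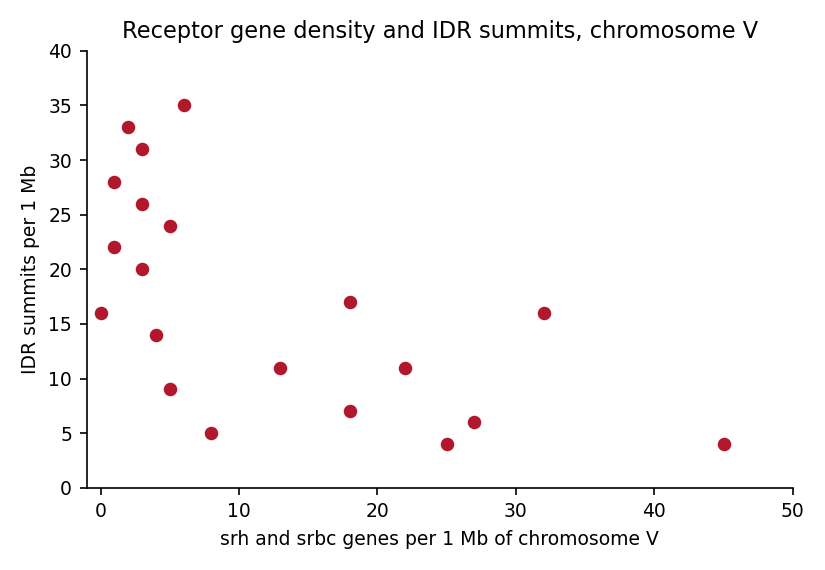
IDR summits per 1 Mb against srh and srbc genes per 1 Mb, over the 20 full segments of chromosome V, 1 point each. The 8 segments with 10 or more members hold 4 to 17 summits, and the 12 others 5 to 35.

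Several features of the annotation and the sequence bear on how often a window can hold a summit, and their part in the counts was not tested. A single start was annotated for 271 of the members (93.1%), against 73.7% of all genes, so members have fewer windows. Among genes with 1 start, 9.23% of members and 33.3% of all genes had a pooled summit, and among genes with several starts 6 of 20 members and 59.3% of all genes. In the IDR list both srh-16 and srh-89 have 1 start, which makes 2 of 271 beside 7.18% of all such genes. The upstream gap to the next gene had a median of 1030 bp for members and 1156 bp for all genes. That neighbour was itself a chemoreceptor gene for 151 members (51.9%), against 6.56% of all genes. The share was 48.3% for the other chemoreceptor families and 17.9% for protein-coding genes on chromosome V.

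Recent duplicates can share sequence, and reads from such stretches are hard to place. The share of 31-base stretches in the window that occur once in the genome had a median of 99.2% for members, and the median window of all genes was wholly unique. At least 90% of the window was unique in this sense for 233 members (80.1%) and for 85.4% of all genes. Over these genes alone, 2 of 233 members (0.858%) and 9.91% of all genes had an IDR summit, and 11.2% and 43.8% had a pooled one. The windows of srh-16, srh-89, srh-2 and srbc-58 were wholly unique. The sources used here give neither the read length nor how reads with several matches were treated. Uniqueness was added after the data were seen.

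Promoter letters were then compared over 250 bp upstream to 50 bp downstream of each start. The Hox hexamer TTTATG, on either strand, stood in 91 of 291 member promoters (31.3%) and in 30.4% of all promoters, and its core TTTAT in 87.6% and 88.9%. GAGAGA was in 30 member promoters (10.3%), against 10.7% of the promoters of the other chemoreceptor families, 25.3% of all genes and 36.7% of genes with an IDR promoter summit. The families differed in other letters. CAGCTG was in 18.6% of srh promoters and 4.23% of srbc promoters, against 7.16% of all, and TGATAA in 28.2% of srh and 49.3% of srbc promoters, against 35.0%. TAATTA was in 28.9% of member promoters, 22.0% of those of the other chemoreceptor families and 18.4% of all. All starts of a gene were searched here, and a smaller share of members than of all genes has several starts. With the outermost start only, TTTATG stood in 29.9% of members and 26.1% of all genes, and TTTAT in 86.9% and 86.4%. TGATAA was then in 32.3% and 30.2%, GAGAGA in 10.3% and 21.8%, CAGCTG in 14.4% and 5.53% and TAATTA in 27.8% and 15.5%. Over the longer window of 1000 bp upstream to 200 bp downstream the differences from all genes were smaller for 2 of these motifs, with CAGCTG in 28.5% of members and 24.1% of all genes and TAATTA in 56.4% and 51.5%. GAGAGA stood there in 30.9% of members, 32.1% of the other chemoreceptor families and 54.6% of all genes. The median A+T share was 66.7% for members and 65.4% for all genes, against 63.9% for genes with an IDR promoter summit. These are counts of letters, with no test, and duplicated genes can share them by descent.

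Within 50 bp of the 32 pooled summits in member windows, GAGAGA was found at 3 (9.38%) and TTTATG at 1 (3.12%), against 14.1% and 8.57% of the 9958 pooled summits in promoter windows of all genes. The shorter core TTTAT was at 12 of the 32 (37.5%), against 3685 of the 9958. TAATTA was at 5 of the 32 (15.6%), against 3.59%, and TGATAA at 4 (12.5%), against 7.11%. The median A+T share there was 62.4% for members and 59.4% for all genes.

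Other genes of chemosensation give the setting. Of the 1018 genes in the other chemoreceptor families, 3 (0.295%) had an IDR summit in the window: sri-5 with a score of 71.8, sre-23 with 35.5 and srr-10 with 34.5. The sri-5 summit also stood in the window of rsr-1, and that of srr-10 in the window of clic-1. In the pooled list 87 of the 1018 (8.55%) had a summit, beside the 10.7% of srh and srbc genes. The str family had 20 of 193 (10.4%), srd 8 of 67 (11.9%) and sre 8 of 54 (14.8%), and 0 of the 30 srv genes had one, with an exact upper bound of 11.6%. The exact intervals of srh (8.25 to 17.4%) and srbc (1.56 to 13.8%) both overlapped those of str, srd, sre and srv, and no test between families was run.

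**Figure D5:**
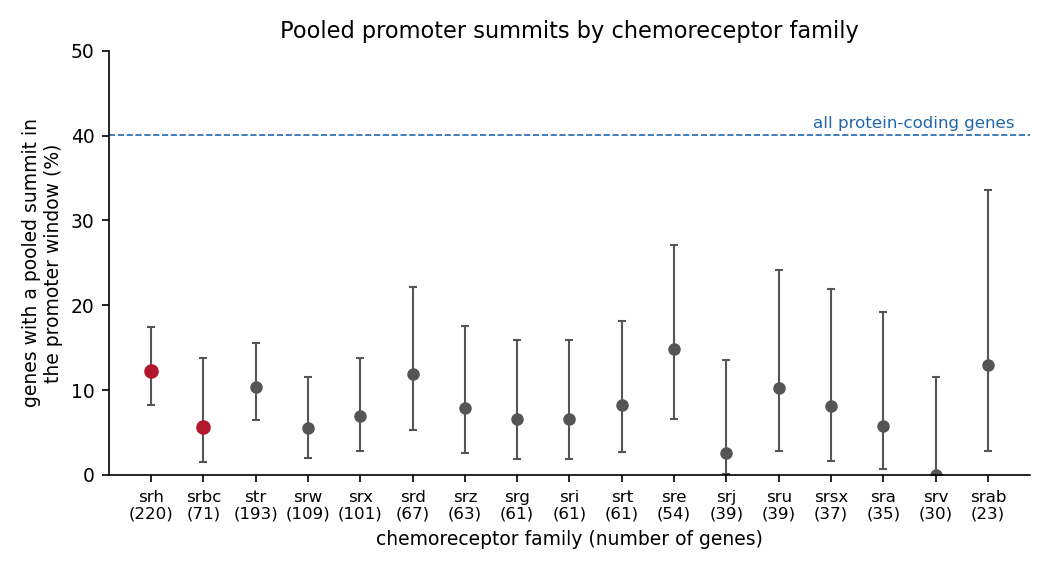
Percent of genes with a pooled summit in the promoter window for srh and srbc (first 2 points) and for the other chemoreceptor families with 20 or more genes, with exact 95% binomial intervals for counting error; the dashed line is the 40.1% of all protein-coding genes. All of these families lie below the line, srh at 12.3% and srbc at 5.63%.

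Genes that act with the receptors were also counted. Of 27 transduction and receptor transport genes found of 29 listed (daf-21 and ttx-4 were not matched by symbol), 3 (11.1%, exact 95% interval 2.35 to 29.2%) had an IDR promoter summit. They were gpb-1, which encodes a G protein beta subunit (score 41.0), tax-6, the calcineurin A subunit (39.8), and eat-16, a regulator of G protein signalling (38.0). Of 24 regulators of chemosensory neuron fate or receptor expression, 3 (12.5%, interval 2.66 to 32.4%) had one: mef-2 (34.0), daf-19, the RFX factor of ciliated neurons (33.9), and kin-29, a kinase that acts on chemoreceptor expression (33.8). This count fell to 1 without replicate 1, to 1 without replicate 2 and to 0 with support in each replicate. Both shares have intervals that include the 8.92% of all genes. Terminal selectors in the list, such as odr-7, che-1, ttx-1 and lim-4, had no IDR summit in their windows. The same was true of most of the 24 regulators and of most protein-coding genes.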

How the data were processed

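Peaks of eGFP-tagged EGL-5 from 2 biological replicates were analysed as deposited. Each peak has a score on the authors' own scale, used only within its list. A −log10 q-value per peak, deposited in the same lists, was not used for ranking. Per the notes deposited with the lists, peaks were called for each replicate and for both together against a control alignment, and these sets, which include background, entered IDR. The sources used here name no caller, aligner or IDR threshold. The ce11 lists were used, and ce10 replicate lists only to compare scores by rank. Summits were placed in windows of 29314 distinct protein-coding starts (Ensembl, WBcel235; Python 3.11.15, pandas 2.3.3, scipy 1.17.1), and the placement was tested on simulated data. Sequence came from RefSeq's WBcel235 genome. Shares are counts with exact Clopper-Pearson 95% intervals. Since 1 group was analysed, no test was run. Members, lists and named genes were chosen with earlier results of these data known: named were members with an IDR summit under any setting, then those of highest pooled score up to 25, and 5 just outside the window. Windows, starts, assignment, list depth, replicate and chromosome were varied, and peak overlap meant 1 bp or more. Some items are not reported here.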

Additional observations from a re-analysis of the deposited data

How the results depend on the processing

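The count of 2 members with an IDR promoter summit was 1 with a window of 500 bp (srh-16), 4 with 2000 bp (with srh-2 and srbc-58), 1 among the 1285 highest-scoring IDR peaks (srh-16) and 1 with support in each replicate (srh-89). The srh-16 peak overlapped a peak in both full replicate lists, but it stood outside the 2570 highest of replicate 1. Leaving out 1 replicate gave 2 in each case (srh-16 and srh-89 from replicate 2 alone, srh-89 and srh-2 from replicate 1 alone). It stayed at 2 with the outermost start only, with overlapping peaks, with nearest starts (srh-16 and srh-2) and in windows of at least 90% unique sequence, the last chosen after seeing the data. The count over all genes, 1781, was 1420 (7.11%) with 500 bp and 2346 (11.7%) with 2000 bp. With these windows the member shares were 0.344% and 1.37%. Over all genes the count was 1028 (5.15%) among those 1285 peaks, 1026 (5.14%) with support in each replicate and 252 on chromosome V. Without 1 replicate it ranged from 1560 to 1808. Pooled members, 31, numbered 17 with 500 bp, 55 with 2000 bp, 11 above the median score and 9 overlapping a peak of each replicate. The 48 members of replicate 1 became 83 with 2000 bp, 2 at the depth of the IDR list and 16 above the median score; the 23 of replicate 2 became 12 with 500 bp, 46 with 2000 bp, 2 and 11. For these other windows, score cuts and overlaps, pooled and replicate counts over all genes are not given here, so they have no background. Other chemoreceptor genes, 3, were 1 with 500 bp, 7 with 2000 bp, 8 with nearest starts and 1 among the 1285 peaks. Transduction genes, 3, were 1 with 500 bp, 5 with nearest starts and 1 among the 1285 peaks. Fate regulators, 3, were 0 among the 1285 peaks and with support in each replicate, and 1 with either replicate left out. Over 1000 bp upstream to 200 bp downstream, TTTATG stood in 73.2% of member promoters and 71.7% of all, TTTAT in 100% and 99.8%, GAGAGA in 30.9% and 54.6%, CAGCTG in 28.5% and 24.1%, TGATAA in 77.0% and 75.4% and TAATTA in 56.4% and 51.5%. Longer windows hold more letters, and the contrasts in CAGCTG and TAATTA were smaller there. Other causes were not tested. No paired analysis was possible because the samples form 1 group. Unknown depth limits what the lower lists can show.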
